A study of Mus musculus with 8 samples.

Results

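The cells described here were β-cells that carried transcripts of DNA synthesis and mitosis, in single-cell RNA-seq of mouse pancreatic islets. A cell was taken as a β-cell when it had at most 3000 genes and at most 20000 unique molecular identifiers (UMIs, 1 per captured transcript), when Ins1 and Ins2, the insulin genes, made up at least 20% of its UMIs, and when the hormone genes Gcg, Sst and Ppy each made up under 5%. Of 1240 cells in the deposited tables, 1232 met the limits on genes and UMIs, and 923 of these were β-cells. A β-cell was a member when it held at least 2 UMIs summed over 14 genes, of which Rrm2, Tyms and Tk1 supply deoxynucleotides in S phase and Top2a, Mki67, Cdk1, Ccna2, Birc5, Ube2c, Cenpa, Nusap1, Tpx2, Cdca8 and Pbk serve G2 and mitosis. This rule found 51 of the 923 β-cells, called cycling β-cells below as a short name for these transcripts. They were set against the 821 β-cells with 0 UMIs of the 14 genes from the same samples, and another 51 β-cells had exactly 1 such UMI.

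The islets came from 8-week-old male C57BL/6J mice. Control mice had no operation, and PPTx mice had 50% partial pancreatectomy, the removal of a part of the pancreas, 2 days before their islets were isolated. There were 4 control and 4 PPTx samples, each a pool of islets from 1 to 3 mice, so a p-value between groups measures the spread between such pools. The sample labels name a Chromium kit and the methods of the study the SureCell kit of the ddSEQ system.

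Adult β-cells divide rarely, and in rodents the loss of pancreatic tissue is a classical stimulus to their division. On the way into S phase, factors of the E2F family switch on the genes that load the MCM helicase onto replication origins, supply nucleotides and build the replication fork. In G2 and mitosis a later wave of genes makes the spindle, the kinetochores, condensin, and the machinery that separates the daughter cells. A single-cell library captures a fraction of a cell's transcripts, so a cell with 0 UMIs of a gene may still express it.

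The files held between 236645 and 1580152 UMIs per sample, and no deposited cell had fewer than 2005 UMIs. Only 1 barcode occurred in more than 1 sample, and it belonged to no cycling β-cell. Among the 309 islet cells that were not β-cells, 8 had at least 2 UMIs of the 14 genes, or 2.59% (95% exact interval 1.12 to 5.04%), against 5.53% (4.14 to 7.2%) of β-cells, at median depths of 4237 and 6136 UMIs. These intervals cover counting error only. The share with exactly 1 UMI was 3.88% in other islet cells and 5.53% in β-cells.

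The 14 genes of the rule gave 530 UMIs in the 51 cycling β-cells, and these values are a description, since they chose the cells. Pbk, a mitotic kinase, had the most with 83 UMIs in 27 cells, followed by Top2a, the topoisomerase that untangles sister chromatids, with 75 UMIs in 30 cells. Cdk1, the kinase that drives entry into mitosis, had 55 UMIs in 21 cells, and Ube2c, an enzyme of the anaphase-promoting complex, had 54 in 18. Tyms, the thymidylate synthase of S phase, was as widespread as Pbk, in 27 cells, but at 37 UMIs. Mki67, the common marker of proliferation, was detected in 17 of the 51 cells with 28 UMIs, and Tk1, the thymidine kinase, in 10 cells with 12 UMIs. Thus no gene of the 14 marked more than 30 of the 51 cells.

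The cells differed widely in how many of these transcripts they held. The median was 7 UMIs from 4 genes, and the highest was 53 UMIs in a single cell, with up to 13 of the 14 genes in 1 cell. Just inside the threshold, 11 cells had exactly 2 UMIs, which in 4 of them came from 1 gene, whereas 23 cells had 3 to 9 and 17 had 10 or more. The 3 richest cells held 26.8% of all 530 UMIs. Just outside the threshold, the 51 β-cells with 1 UMI mostly showed Tyms, in 16 cells, or Rrm2, the small subunit of ribonucleotide reductase, in 11.

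By phase, 31 cycling β-cells had UMIs of both S-phase and mitotic genes of the rule, 14 of mitotic genes only and 6 of S-phase genes only. In control samples the split was 6, 6 and 2 of 14 cells, and in PPTx samples 25, 8 and 4 of 37 cells. Cells of a sample are not replicates, so this split was not tested. Genes that the rule did not use were then summed into a replication list (52 genes of origin licensing and the replication fork) and a spindle list (79 genes, Spc25 left out because its reads may be those of its neighbour G6pc2). Over all UMIs of a class of cells, counts are given per 1000000 UMIs (CPM). In the 6 samples that held both kinds, cells with S-phase and mitotic genes had 1979 to 3466 CPM of the replication list and cells with mitotic genes only 0 to 2266 CPM, the first being higher in each of the 6. The spindle list had 2043 to 2488 CPM in the first and 979 to 3140 CPM in the second, which was higher in 4 of 6 samples. In 4 of these samples the second kind was a single cell. All 6 cells with S-phase genes only had exactly 2 UMIs, at the limit of the rule, and they are given by group. The 4 of PPTx samples had 2257 and 709 CPM, against 356 and 194 CPM in PPTx β-cells with 0 UMIs. The 2 of control samples, both from control sample 4, had 232 and 99.5 CPM, no more than the 233 and 158 CPM of control β-cells with 0 UMIs. The 4 control cells with exactly 2 UMIs, likewise from control sample 4, had 779 and 260 CPM, and the 7 PPTx cells with exactly 2 UMIs had 2288 and 718 CPM. The 17 cells with 10 or more had 2344 and 3644 CPM. The β-cells with 1 UMI, which were not members, had 147 and 199 CPM in control and 960 and 264 CPM in PPTx samples.

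Cell by cell, the median cycling β-cell had 22.7 UMIs of the replication list per 10000 UMIs, with a range of 0 to 64.2, and the median β-cell with 0 UMIs of the 14 genes had 2.16. For the spindle list the medians were 17.7 and 1.34 per 10000 UMIs. Of the 51 cycling β-cells, 40 lay above the 95th percentile of 0-UMI cells in the replication list (9.74 per 10000 UMIs) and 42 in the spindle list (5.56 per 10000 UMIs). The other 11 and 9 cells had levels within the lower 95% of 0-UMI cells.

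**Figure D1:**
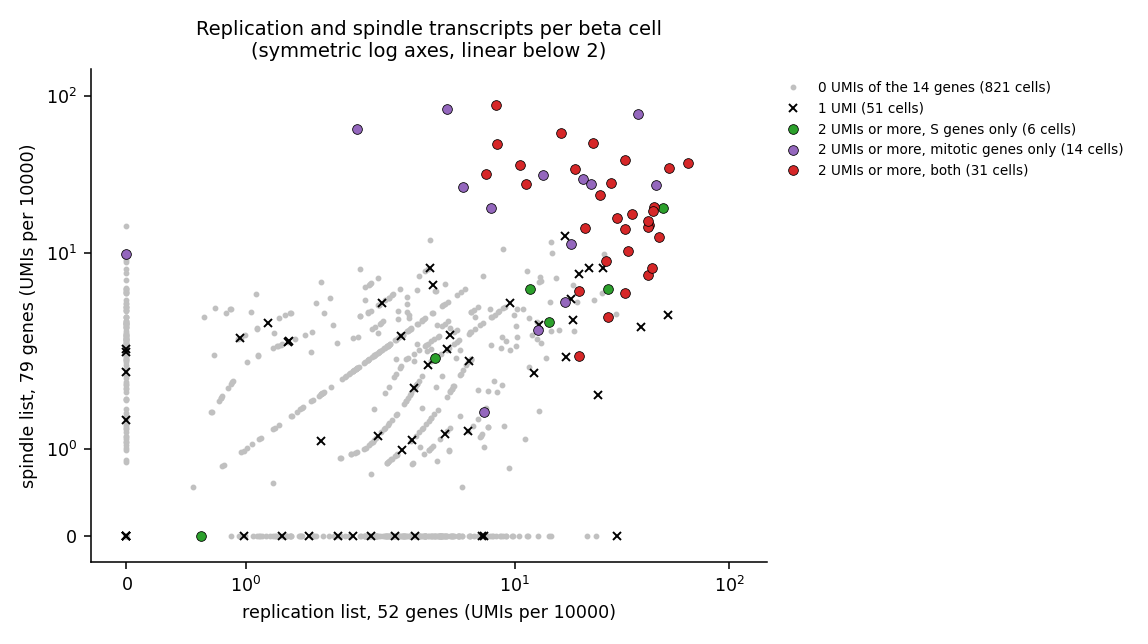
Each point is 1 β-cell, with its UMIs of the replication list per 10000 UMIs on the x axis and of the spindle list on the y axis (symmetric log axes); the 14 genes of the rule are in neither list. Cycling β-cells (coloured by phase class) spread from the cloud of the 821 0-UMI cells (grey) up to 64.2 per 10000 UMIs on the x axis, with medians of 22.7 and 17.7 against 2.16 and 1.34.

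Insulin and low levels of the other hormones were part of the rule, so their values describe the cells and do not test their identity. Insulin transcripts made up between 32.4 and 66.5% of their UMIs, with a median of 55.3%, against a median of 60.1% in 0-UMI β-cells. Gcg reached 1% of UMIs in none of them, Ppy in none and Sst in 1. Summed over 6 samples with at least 3 cycling β-cells each, α-cell markers ranged from 1071 to 2819 CPM in cycling and from 1694 to 2293 CPM in 0-UMI β-cells. Acinar markers ranged from 0 to 68.8 against 6.65 to 154 CPM, ductal markers from 151 to 323 against 216 to 370 CPM, endothelial markers from 0 to 47.4 against 1.33 to 14.6 CPM, and immune markers from 0 to 117 against 6.82 to 38.9 CPM. Stellate markers were at 0 CPM in cycling β-cells, and Ghrl, the hormone of ε-cells, had no UMI there. Thus the ranges of each of these lists in cycling cells overlapped those of 0-UMI cells or lay at 0.

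Cycling β-cells had a median of 7051 UMIs, with a range from 2062 to 16797, and 0-UMI β-cells had a median of 6017. Within samples, the median UMI count per cell was 1.16-fold higher in cycling cells (log10 difference 0.0658, higher in 4 of 6 samples), which did not pass an exact sign-flip test (two-sided p = 0.125, smallest possible 0.0312). When each β-cell was first thinned at random to 2800 UMIs and the rule then applied, the log10 difference in original UMIs was −0.00919 (exact p = 0.75). The median insulin share differed by −3.70 percentage points ± 3.84 (SD, n = 6) between cycling and 0-UMI β-cells, being lower in 5 of 6 samples and higher by 3.48 points in PPTx sample 3, which is given without a test because the choice of β-cells used insulin.

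The share of cycling β-cells tended to be larger after PPTx, but the groups overlapped. In control samples 1 to 4 it was 1.85, 1.32, 4.10 and 6.03% of β-cells (1, 1, 5 and 7 cells), and in PPTx samples 1 to 4 it was 7.22, 7.14, 8.91 and 3.76% (7, 16, 9 and 5 cells). Thus 3 of 4 PPTx samples lay above every control sample, while PPTx sample 4 lay below control samples 3 and 4. The mean was 3.33% ± 2.17 (SD, n = 4) in control and 6.76% ± 2.16 in PPTx samples, which is 3.43 points apart (two-sided exact permutation test, p = 0.0857, where 4 samples against 4 cannot go below 0.0286).

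Depth differed between samples, so the share was also computed after each β-cell was thinned to 2800 UMIs, which left out 25 control and 67 PPTx β-cells with fewer UMIs, 2 cycling β-cells among them. The shares were then 0, 1.37, 3.42 and 2.68% in control and 4.21, 5.79, 7 and 3.88% in PPTx samples. The groups no longer overlapped, and the difference of 3.35 percentage points had the smallest p that this design can give (1.87% ± 1.51 against 5.22% ± 1.45, exact permutation test, two-sided p = 0.0286). The lowest PPTx share was 4 of 103 cells in PPTx sample 4, which had 133 β-cells before thinning. The highest control share was 4 of 117 cells in control sample 3, which had 122 before. A single random draw was made, so how far the separation depends on the draw was not tested. The size of the difference was close to that without thinning (3.43 points), and the call rested on the choice to thin. With at least 1 UMI in place of 2, the shares were 5.76% ± 4.16 in control and 14.2% ± 3.68 in PPTx samples, 8.41 points apart (exact permutation p = 0.0571, two-sided). With at least 3 UMIs they were 2.46% ± 1.21 and 5.53% ± 2.73, 3.07 points apart (exact permutation p = 0.0857, two-sided). With at least 2 of the 14 genes detected, the difference was 3.49 points (exact permutation p = 0.0857, two-sided).

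**Figure D2:**
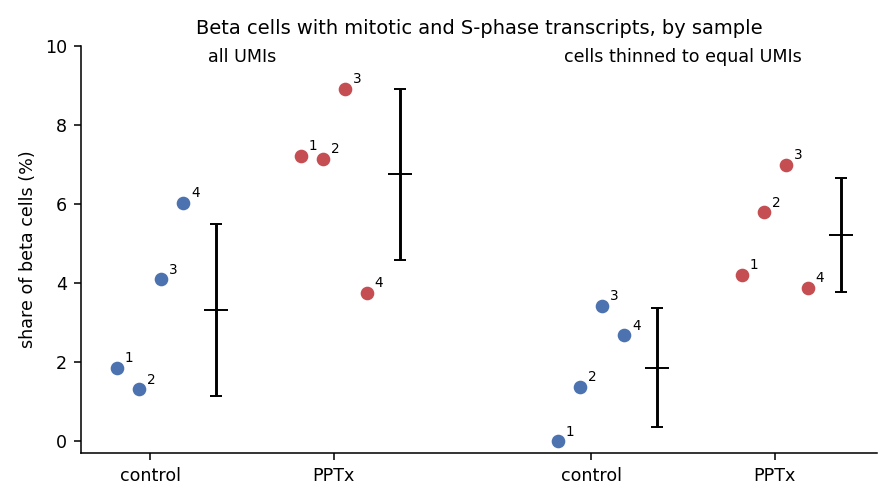
Share of β-cells (%, y axis) with at least 2 UMIs of the 14 genes, 1 point per sample, for control and PPTx, with bars for the mean and SD; on the left over all UMIs and on the right after thinning to 2800 UMIs. PPTx sample 4, at 3.76%, lies among the controls on the left, and on the right the PPTx samples (3.88 to 7%) lie above the controls (0 to 3.42%).

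Genes outside the rule were compared between cycling and 0-UMI β-cells of the same sample in the 6 samples with at least 3 cycling β-cells, namely control samples 3 and 4 and the 4 PPTx samples. Counts were summed per sample and state, the 14 genes were left out, and the sample was a block in edgeR's quasi-likelihood test with Benjamini-Hochberg adjustment over the 8082 genes with at least 30 UMIs. Genes high in cycling cells reach that total more readily, so lists are counted over genes that reach 30 UMIs in the 0-UMI cells alone, and the others enter no such count. Of the 8082 genes, 179 were higher in cycling β-cells (2.21%) and 37 were lower (0.458%) at an adjusted p under 0.05. The median log2 difference over all tested genes was −0.05. Over the 7823 genes that reached 30 UMIs in 0-UMI cells alone, 144 were higher (1.84%), 37 were lower (0.473%) and the median was −0.06. The call rate fell when every cell was thinned to 2800 UMIs before summing, to 38 higher and 8 lower genes, all 46 of them among the 216. All 216 genes kept their sign with DESeq2, in which 133 of the 179 and 19 of the 37 were also called. The scaling set the balance between directions: with TMM factors taken over all tested genes, 110 genes were higher and 172 lower, and the median of all genes moved to −0.35, while the 216 genes kept their sign.

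Genes of DNA replication rose together. Of 14 genes of origin licensing in the files, 5 reached 30 UMIs in 0-UMI cells and all 5 rose, with a median log2 difference of 2.69. Of 38 genes of the replication fork, 14 reached it and 12 of these rose, with a median of 2.19. Over all genes with 30 UMIs in 0-UMI cells, 1.84% rose and the median was −0.06. Another 3 licensing and 4 fork genes reached the total only with the cycling cells, among them Mcm3, Mcm4, Mcm5, Rfc4, Rpa2 and Lig1. Of the genes below the total, Cdt1, which helps to load the helicase, had 18 UMIs in 51 cells against 9 UMIs in 821 cells. Few UMIs suffice for a higher pooled CPM in a sparse gene, since cycling cells held 410019 UMIs in all against 5453095.

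Pcna encodes the sliding clamp that holds DNA polymerases on the template. Its level in the 6 samples of cycling β-cells was 48.1 CPM at the lowest, 202 at the median and 310 at the highest, against 8.11, 12.7 and 25.3 CPM in 0-UMI cells. Control sample 4 was the lowest and PPTx sample 2 the highest, and no sample of cycling cells overlapped the 0-UMI cells (log2 difference 3.54 ± 0.33 SE, adjusted p = 1.60e-24). Mcm6, a subunit of the MCM helicase, had 16, 130 and 211 CPM against 1.33, 12.6 and 30.2 CPM. It was higher in cycling cells of all 6 samples, although control sample 4, at 16 CPM, lay within the range of 0-UMI cells (log2 difference 2.99 ± 0.37, adjusted p = 9.32e-14). Of the other subunits, Mcm7 and Mcm2 rose by log2 values of 3.41 and 2.37. Mcm5, Mcm3 and Mcm4 reached the total only with the cycling cells, which fixed their direction, and their log2 differences of 3.85, 4.37 and 3.31 are a description. Mcm5 had 16, 75.2 and 110 CPM against 0, 4.37 and 11.7 CPM. At the fork, Rfc2, a subunit of the clamp loader, rose by 2.14. Of the genes whose direction was fixed in the same way, Rfc4 of the clamp loader and Lig1, the ligase that joins Okazaki fragments, had differences of 4.62 and 3.92. Tipin, which steadies stalled forks, had 16, 93.7 and 251 CPM against 12, 14.4 and 27.3 CPM (log2 difference 2.67 ± 0.37, adjusted p = 7.80e-11), with control sample 4 again the lowest and control sample 3 the highest.

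Of the 16 genes of nucleotide supply with 30 UMIs in 0-UMI cells, 6 rose and none fell, where 1.84% of all such genes rose. The median log2 difference of the list was 0.97. Dut, the enzyme that removes dUTP, had 80.2 CPM at the lowest, 316 at the median and 421 at the highest in cycling cells, against 34.8, 47.9 and 61.4 CPM in 0-UMI cells. The samples did not overlap between states (log2 difference 2.41 ± 0.23, adjusted p = 8.26e-23). Rrm1, the large subunit of ribonucleotide reductase, rose by 3.51 ± 0.40 and Dtymk, which phosphorylates thymidylate, by 2.31 ± 0.33. Both were higher in 6 of 6 samples, where over all tested genes 3.09% were.

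Zfp367, a zinc-finger gene outside the lists, had the largest log2 difference among the 15 higher genes chosen by rule, which asked for an average of at least 5 log2 CPM and a higher level in each of the 6 samples. Its level was 80.2 CPM at the lowest, 171 at the median and 241 at the highest, against 3.46, 9.57 and 17.5 CPM in 0-UMI cells (log2 difference 4.08 ± 0.36, adjusted p = 3.67e-27). No sample of either state overlapped the other, as held for 111 tested genes in this direction (1.37%).

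**Figure D3:**
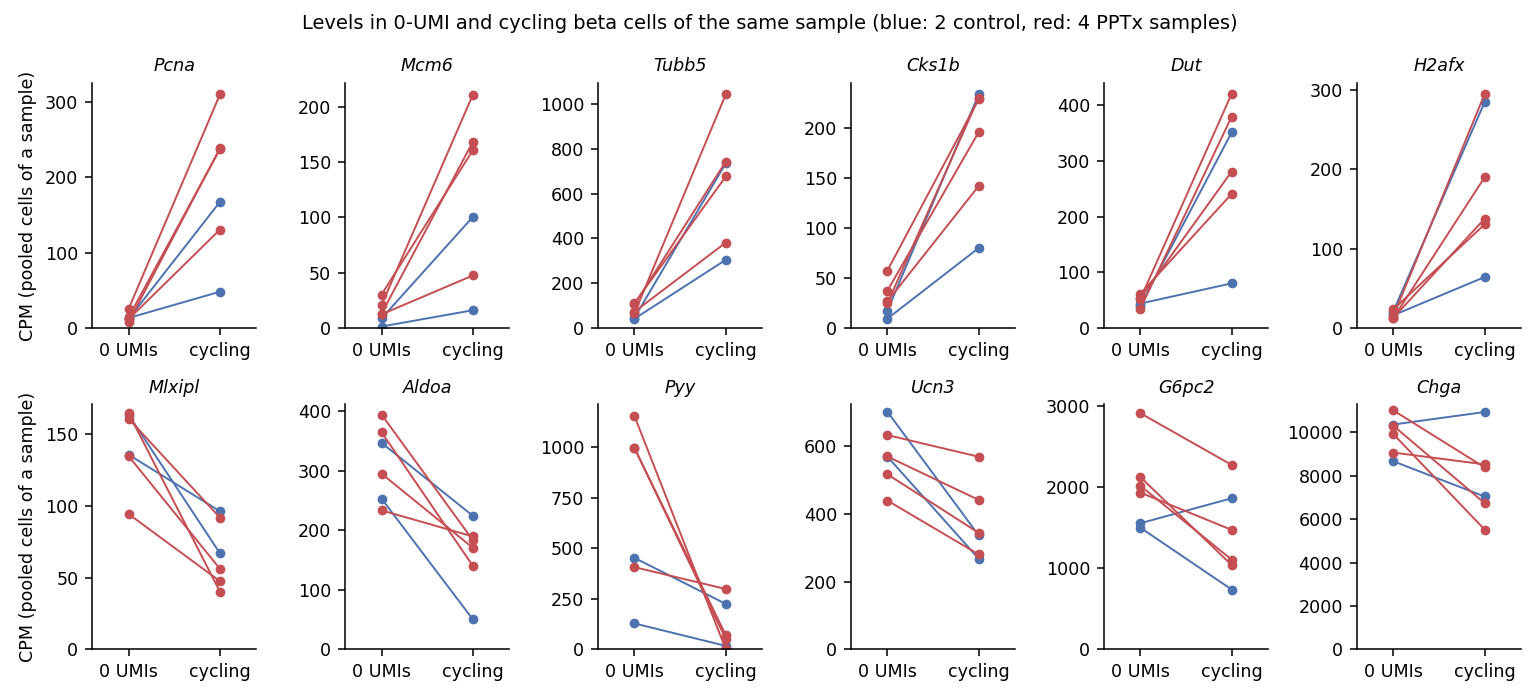
Level of single genes in CPM (y axis, from 0) in 0-UMI and cycling β-cells, with a line joining both states of each sample (blue for 2 control, red for 4 PPTx samples). Pcna rose from 8.11 to 25.3 CPM to between 48.1 and 310 CPM, and Ucn3 was lower in cycling cells of each of the 6 samples.

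The promoters of these genes were read for letters that E2F factors and the later mitotic wave are known for, to show what the group shares in sequence. RefSeq promoters on GRCm38.p6, from 250 bases before to 50 after the start of a gene, were found for 6383 of the 7823 genes with 30 UMIs in 0-UMI cells. Searched on both strands, the E2F-type letters TTTCCCGC, TTTGGCGC, TTTCGCGC or TTTGCCGC (matches may overlap) were in 17 of 120 promoters of such genes called higher, or 14.2%, against 4.01% of all such genes and 2.34% of all 27025 promoters. The letters TTTGAA or TTCGAA of the cell-cycle homology region (CHR), of which the second reads alike on both strands, were in 21.7%, against 11.8% of such genes and 19.4% of all promoters. CCAAT was in 53.3% against 38.4 and 37.8%. For the 20 promoters of called replication and nucleotide genes the shares were 20% for the E2F-type letters, 20% for CHR and 80% for CCAAT. A match is a description of the letters in this window and shows neither binding nor regulation. Stretches of 6 promoters are shown with the match in capitals, 5′ to 3′ on the strand of the gene.
Zfp367 (chr13:64152436-64152483, minus strand, E2F-type): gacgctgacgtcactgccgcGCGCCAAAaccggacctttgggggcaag
Mcm5 (chr8:75109336-75109383, plus strand, E2F-type): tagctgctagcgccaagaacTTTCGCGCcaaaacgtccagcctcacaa
Mcm6 (chr1:128359725-128359772, minus strand, E2F-type): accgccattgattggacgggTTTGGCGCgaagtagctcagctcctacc
Cenpm (chr15:82244380-82244427, minus strand, E2F-type): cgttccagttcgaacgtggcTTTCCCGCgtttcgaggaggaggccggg
Ncapg2 (chr12:116405398-116405435, plus strand, CHR): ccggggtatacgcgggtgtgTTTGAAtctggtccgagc
Cks1b (chr3:89418292-89418328, minus strand, CHR): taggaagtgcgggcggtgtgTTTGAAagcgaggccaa
Zfp367, Mcm5 and Mcm6 were chosen as genes described above with the E2F-type letters in their promoters, Cenpm and Ncapg2 as genes of the kinetochore and condensin, and Cks1b as a gene of the cyclin-dependent kinases, which are described below. Mcm5, Cenpm and Ncapg2 reached 30 UMIs only with the cycling cells and are not in the shares above.

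Genes of the spindle and the kinetochore, the protein complex that ties chromosomes to the spindle, were mostly too sparse to test. Of 80 genes in the files, 5 reached 30 UMIs in 0-UMI cells, and of these Spc25 rose and none fell (median log2 difference 0.71). Of all such genes, 1.84% rose. Another 6 reached the total only with the cycling cells and so had to be high in them, Cenpm, Cdca3, Racgap1 and Spc24 among them. Some of the untested genes are described by their UMIs. Cycling cells held 410019 UMIs in all against 5453095, so few UMIs suffice for a higher pooled CPM in a sparse gene. Cenpf, which coats the kinetochore in mitosis, had 16 UMIs in 8 of the 51 cycling cells and 0 UMIs in the 821 other cells, at least 70.9-fold higher when the floor is 3 counts over all 0-UMI cells. Cdc20, the activator of the anaphase-promoting complex, had 23 UMIs against 2, a ratio of 153 per UMI of depth (95% counting interval 37.8 to 1338). Prc1, which bundles the midzone of the spindle, had 22 UMIs against 4, and Knstrn, a protein of the kinetochore, 24 against 1.

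Of the 6 genes that reached the total with the cycling cells, Cenpm, a part of the inner kinetochore, had 48.1 CPM at the lowest, 115 at the median and 285 at the highest in cycling cells, against 0, 1.64 and 6.49 CPM in 0-UMI cells. It had UMIs in 30 of the 51 cells, as many as Top2a of the rule, and a log2 difference of 5.58 ± 0.51. Cdca3, which triggers mitotic entry, had 42.1, 66.5 and 134 CPM against 0, 1.14 and 1.62 CPM (log2 difference 5.99 ± 0.61). Racgap1, a component of the machinery of cytokinesis, had 42.1, 103 and 190 CPM against 0, 5.52 and 6.48 CPM (log2 difference 4.29 ± 0.48). These values are a description, since the filter fixed their direction. Spc25, a kinetochore gene, lies beside G6pc2 in the genome, so its 1.44 ± 0.16 is uncertain where reads of the neighbouring gene were counted for it, and it had a median of 232 CPM in 0-UMI cells.

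Of 11 genes of condensin and cohesin, the rings that fold chromosomes and hold sister chromatids, 2 rose and none fell (median log2 difference 1.04). Over all genes with 30 UMIs in 0-UMI cells, as these 11 had, 1.84% rose. Smc4, a core condensin subunit, had 64.1, 132 and 251 CPM against 4.87, 7.94 and 28.7 CPM (log2 difference 3.78 ± 0.39, adjusted p = 8.40e-20), without overlap. Ncapg2 and Ncapd2, which reached 30 UMIs only with the cycling cells, had differences of 4.51 ± 0.55 and 4.43 ± 0.54.

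Of 30 genes of histones and chromatin packing with 30 UMIs in 0-UMI cells, 15 rose and none fell (median log2 difference 1.04), where 1.84% of all such genes rose. H2afx, the histone variant that is phosphorylated at broken DNA, had 64.1 CPM at the lowest, 164 at the median and 294 at the highest, against 12.3, 15.3 and 23.3 CPM, without overlap (log2 difference 3.26 ± 0.32, adjusted p = 1.27e-21). H2afz, another variant, rose by 2.23 ± 0.31, and the chromatin protein Dek by 3.09 ± 0.35. Dek was lowest in control sample 4, at 16 CPM, within the range of 0-UMI cells (7.78 to 26 CPM). Hist1h2bc, 1 of 3 tested genes of replication-dependent histones, fell, where 0.458% of all tested genes did (log2 difference −1.34 ± 0.31, adjusted p = 0.00133). It had 0, 47.1 and 115 CPM against 84, 119 and 162 CPM, and was not called without PPTx sample 1 or 3 (edgeR adjusted p = 0.0568 and 0.0838). Replication-dependent histone messages largely lack poly(A) tails, so a poly(A)-based library captures most of them poorly. Both states came from the same samples, and the cause of the fall of Hist1h2bc was not tested.

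Tubb5, a β-tubulin, was the gene with the smallest adjusted p (7.53e-55). Its level was 305 CPM at the lowest, in control sample 4, 706 at the median and 1044 at the highest, in PPTx sample 4, against 41.2, 69.1 and 111 CPM in 0-UMI cells. It had UMIs in 46 of the 51 cycling β-cells, and no sample overlapped (log2 difference 2.94 ± 0.18). Tuba1b, an α-tubulin, had 0, 213 and 427 CPM against 14.6, 23.6 and 42.2 CPM and rose by 2.78 ± 0.28, although it had no UMI in the cycling cells of control sample 4. In all, 5 of 12 tested genes of tubulins and stathmin rose (median log2 difference 0.54). Over all genes that reached the minimum total in 0-UMI cells alone, as these 12 did, 1.84% rose. Stmn1, the untested microtubule destabilizer stathmin, had 24 UMIs in cycling cells against 2.

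Among cyclins, cyclin-dependent kinases, their inhibitors and E2F factors, 5 of 18 genes with 30 UMIs in 0-UMI cells rose and none fell (median log2 difference 0.93). Of all such genes, 1.84% rose. Cks1b, the small subunit that binds cyclin-dependent kinases, had 80.2, 213 and 234 CPM against 9.31, 25.6 and 57.5 CPM (log2 difference 2.65 ± 0.28, adjusted p = 4.23e-18). All its samples lay above the 0-UMI cells, but Cks1brt is a near-identical copy, so how reads were shared between them is uncertain. E2f1 rose by 2.38 ± 0.42. Ccne2, a cyclin of S-phase entry, and Cdkn2c, an inhibitor that blocks CDK4 and CDK6, reached the total only with the cycling cells. Ccne2 had a difference of 2.87 ± 0.57. Cdkn2c had 47.4, 91.2 and 201 CPM against 2.05, 5.09 and 10.6 CPM (log2 difference 4.11 ± 0.44). Cdkn1a, the inhibitor p21, rose by 1.71 ± 0.39 (adjusted p = 0.000821, and 0.229 without PPTx sample 1) with overlap, since PPTx sample 4 had no UMI of it. Ccnd2, the main D-type cyclin of β-cells, differed by −0.03 ± 0.14 (adjusted p = 0.97), and the mitotic cyclins Ccnb1 and Ccnb2, not tested, had 12 UMIs against 2 and 16 against 1.

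Of 12 genes of DNA damage and repair with 30 UMIs in 0-UMI cells, Topbp1, which activates the ATR checkpoint, rose and none fell (median log2 difference 0.86), where 1.84% of all such genes rose.

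Of 38 tested splicing factors of the SR and hnRNP families and the spliceosome core, 6 rose and none fell (median log2 difference 0.56), where 1.84% of all genes with 30 UMIs in 0-UMI cells rose. Snrpd1, a core protein of the spliceosome, had 48.1, 137 and 264 CPM against 24.6, 31.9 and 46.8 CPM without overlap (log2 difference 1.86 ± 0.31, adjusted p = 2.24e-07). Lsm8, of a related ring on U6 RNA, and Selenoh, a selenoprotein listed as 2700094K13Rik, rose by 2.03 ± 0.36 and 2.20 ± 0.32. Of 23 genes of ribosome biogenesis, 3 rose (Nop56, Ncl and Npm1, the last not called without control sample 4 or PPTx sample 1, 3 or 4), against the same 1.84%, and the median of the list was 0.09. None of 78 genes of cytosolic ribosomal proteins, 76 of nuclear oxidative phosphorylation or 40 of the proteasome was called.

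**Figure D4:**
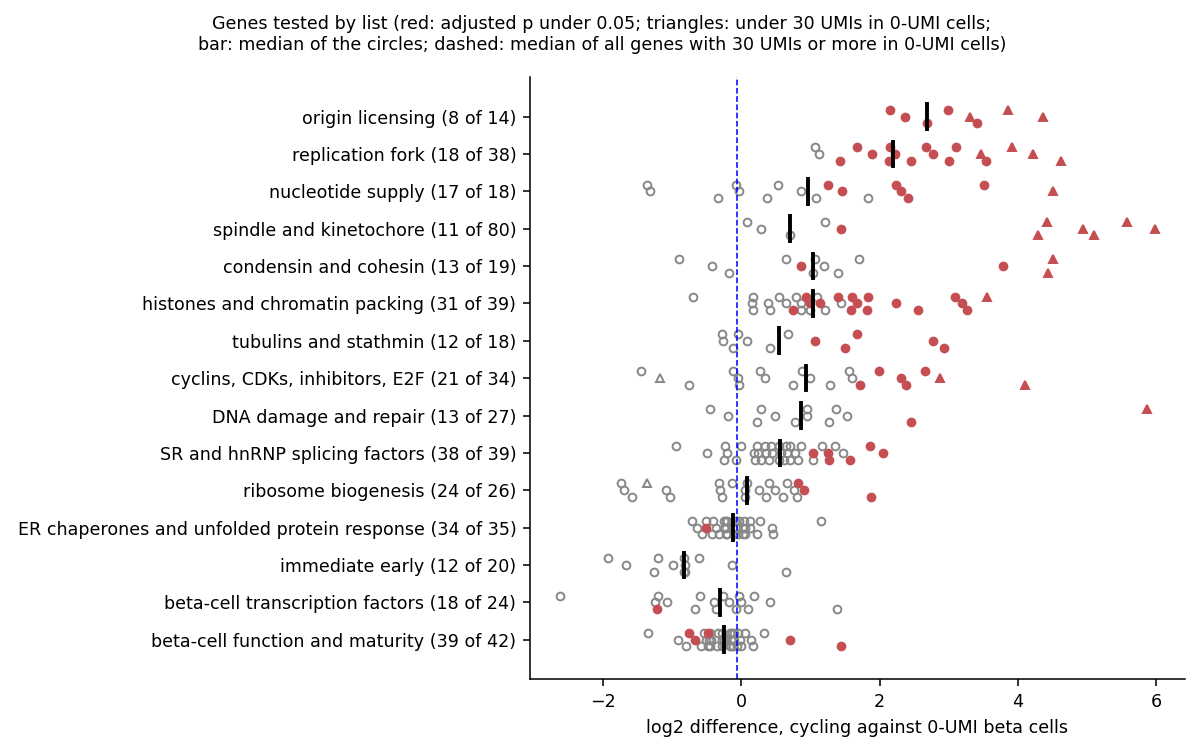
Log2 difference between cycling and 0-UMI β-cells (x axis) of every tested gene, by gene list (rows, with the number tested of those in the files); red marks an adjusted p under 0.05, triangles mark genes that reached 30 UMIs only with the cycling cells, bars give the median of the circles and the dashed line the median of all 7823 genes counted so (−0.06). Licensing and fork genes sit to the right with medians of 2.69 and 2.19, and the lists of β-cell genes sit slightly to the left with medians of −0.31 and −0.24.

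Of 39 tested genes of β-cell function and maturity, 3 fell, 2 rose and 34 did not pass (median log2 difference −0.24), so that 12.8% were called, against 2.67% of all tested genes, and of 18 tested β-cell transcription factors 1 fell (median −0.31). Ins2 had a log2 difference of −0.24 ± 0.10 and Ins1 of −0.11 ± 0.11, as a description, since both genes helped to choose the β-cells. Nkx6-1, a factor of β-cell identity, had −0.59 ± 0.27 (adjusted p = 0.322), and Slc2a2, the glucose transporter, −0.16 ± 0.21 (adjusted p = 0.845).

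The 3 genes that fell were Ucn3, G6pc2 and Chga. Ucn3, a peptide that marks mature mouse β-cells, had 268 CPM at the lowest, 340 at the median and 569 at the highest in cycling cells, against 440, 570 and 702 CPM in 0-UMI cells. The ranges overlapped, yet Ucn3 was lower in cycling cells of each of the 6 samples (log2 difference −0.76 ± 0.17, adjusted p = 0.000492), where 4.49% of all tested genes were. G6pc2, the glucose-6-phosphatase of islets, had 736, 1287 and 2271 CPM against 1499, 1973 and 2908 CPM. It was lower in 5 of 6 samples, control sample 4 being the exception (log2 difference −0.67 ± 0.13, adjusted p = 3.98e-05). Chga, the granule protein chromogranin A, had 5521, 7714 and 10936 CPM against 8669, 10118 and 11015 CPM and was likewise lower in 5 of 6 samples (log2 difference −0.48 ± 0.11, adjusted p = 0.00172, and 0.0612 without PPTx sample 3).

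The 2 genes of this list that were called higher with edgeR did not pass with DESeq2, and both lost the call without PPTx sample 1 or 3, among others (edgeR adjusted p = 0.0506 to 0.804). Pcsk1, a prohormone convertase, had a log2 difference of 0.71 ± 0.21 (edgeR adjusted p = 0.032), and with DESeq2 its adjusted p was 0.22. Nnat, a membrane protein of the secretory path, was higher in 3 and lower in 3 of 6 samples (log2 difference 1.44 ± 0.42, edgeR adjusted p = 0.0246, DESeq2 adjusted p = 0.91). The transcription factor that fell was Mlxipl, the glucose-responsive factor ChREBP, with 40.1, 61.5 and 96.2 CPM against 94.3, 148 and 165 CPM (log2 difference −1.22 ± 0.29, adjusted p = 0.0017, and 0.0595 without PPTx sample 3). It was lower in all 6 samples. Txnip, a glucose-induced gene known as a target of ChREBP and picked here after its value was seen, fell as well (log2 difference −1.02 ± 0.22, adjusted p = 0.00036). Its difference was −1.51 in PPTx and −0.44 in control samples alone, and other targets of ChREBP were not tested as a list. Of 12 tested genes of glycolysis, Aldoa alone fell, where 0.458% of all tested genes did, with 50.2, 177 and 225 CPM against 234, 321 and 395 CPM and no overlap, as held for 121 tested genes in this direction (1.5%; log2 difference −1.13 ± 0.21, adjusted p = 8.74e-06).

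The other lower genes chosen by rule had few transcripts in cycling cells. Pyy, a peptide of the PP family, had 0, 60.2 and 298 CPM in cycling cells against 128, 724 and 1154 CPM and was lower in 6 of 6 samples (log2 difference −2.41 ± 0.21, adjusted p = 2.78e-27). It had 51 UMIs there, of which 18 came from a single cell of PPTx sample 2. Pyy had UMIs in 17 of the 51 cycling cells and in 37.6% of 0-UMI cells. It reached 1% of UMIs in 0 cycling cells and in 14 of the 821 0-UMI cells. How much of the difference these 14 cells carry was not tested. Ppy itself, whose limit of 5% was part of the choice of β-cells and which is therefore only described, had a log2 difference of −1.37 ± 0.17 over the 6 samples and of 0.49 in control samples alone. Its range was 33.5 to 930 CPM in cycling and 142 to 2309 CPM in 0-UMI cells, and the part of RNA from PP-cells in the values of Pyy and Ppy was not tested. Nfat5, an osmotic stress factor, had 2 UMIs in cycling β-cells against 201 in 0-UMI cells, a ratio of 0.132 (95% counting interval 0.0159 to 0.484), and Baiap3, which serves vesicle traffic, had 2 against 190, a ratio of 0.140 (0.0168 to 0.513). Ret, a receptor tyrosine kinase, had 0, 15 and 22.9 CPM against 40.9, 57.2 and 70.9 CPM without overlap (log2 difference −1.96 ± 0.52, adjusted p = 0.0111). Insrr, a receptor related to that of insulin, and Atp6v1e1, a subunit of the vacuolar proton pump, fell by 0.98 ± 0.26 and 0.93 ± 0.23 on the log2 scale. The rule also named Azi2, Snrnp27, Por, Stx5a, Vstm2l and Fkbp1b. With DESeq2, 9 of the lower genes chosen by rule were not called, namely Nfat5, Baiap3, Azi2, Ret, Snrnp27, Por, Stx5a, Vstm2l and Fkbp1b. These 9 and Insrr each lost their call without at least 1 of the 6 samples (edgeR adjusted p = 0.0573 to 0.357), Ret without PPTx sample 3 and Insrr without PPTx sample 1 or 3.

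Of 34 tested genes of ER chaperones and the unfolded protein response, Ero1lb, an oxidase of the ER of β-cells, fell (log2 difference −0.50 ± 0.14, adjusted p = 0.0187, and 0.0751 to 0.109 without control sample 3 or PPTx sample 2 or 3), which is 2.94% called against 2.67% of all tested genes, and the median was −0.12. Of 14 genes of the integrated stress response with 30 UMIs in 0-UMI cells, none was called, and Psat1, an enzyme of serine synthesis that reached the total only with the cycling cells, had a log2 difference of 3.05 ± 0.62, with 15 UMIs in 8 of them. No gene passed among 16 of cholesterol synthesis, 12 immediate early genes, 6 of MHC class I or 4 that are disallowed in or typical of immature β-cells. The median of the immediate early genes was −0.83. Of 12 tested genes of metallothionein and iron, 3 were called (25%), against 2.67% of all tested genes. Mt2, which binds zinc, rose by 1.02 ± 0.23, and was not called without control sample 4 (edgeR adjusted p = 0.112), and Ftl1, the ferritin light chain, fell by 0.56 ± 0.15. Mt1, the other metallothionein, was called with a log2 difference of 0.59 ± 0.17, of 0.98 in control and 0.19 in PPTx samples alone. It was lower in cycling cells of PPTx samples 1 and 3, and 1 cell of control sample 4 held 44 of its 188 UMIs. Mt1 was not called with DESeq2 (adjusted p = 0.41), nor without control sample 3 or 4 or PPTx sample 2 or 4 (edgeR adjusted p = 0.0748 to 0.439).

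Cycling β-cells of control and PPTx samples were compared next, at first by the replication and spindle lists as values without a test. In cycling cells of control samples 1 to 4 the replication list made up 485, 3766, 2543 and 834 CPM (1, 1, 5 and 7 cells), and in those of PPTx samples 1 to 4 it made up 2482, 2902, 2680 and 2989 CPM. PPTx samples were thus close to each other, while control samples spread on both sides of them, and control sample 4 was low with 4 of its 7 cells at exactly 2 UMIs. The spindle list made up 8244, 7683, 2493 and 1171 CPM in control and 2061, 2076, 2007 and 2182 CPM in PPTx samples, where the highest values came from the samples with a single cell.

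In β-cells with 0 UMIs of the 14 genes the replication list made up 155, 194, 269 and 222 CPM in control and 300.2, 476, 289 and 279 CPM in PPTx samples, so that these groups did not overlap. This was not particular to replication. Nucleotide supply (687 to 737 against 812 to 1219 CPM) and ER chaperones (7371 to 9284 against 11112 to 14489 CPM) did not overlap there either. Histones and chromatin packing did (1263 to 1550 against 1345 to 1730 CPM). The share of lists without overlap is not given. The spindle list of these 0-UMI cells made up 160, 154, 158 and 158 CPM in control samples. In PPTx samples it made up 187, 237, 174 and 146 CPM, which overlapped. In β-cells with 1 UMI the replication list made up 136, 114 and 199 CPM in control samples 2 to 4 (1, 5 and 5 cells) and 1520, 877, 447 and 1019 CPM in PPTx samples (10, 16, 7 and 7 cells), without overlap. The spindle list of these 1-UMI cells made up 271, 228 and 142 CPM against 337, 253, 174 and 340 CPM, which overlapped. Control sample 1 had no β-cell with 1 UMI.

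**Figure D5:**
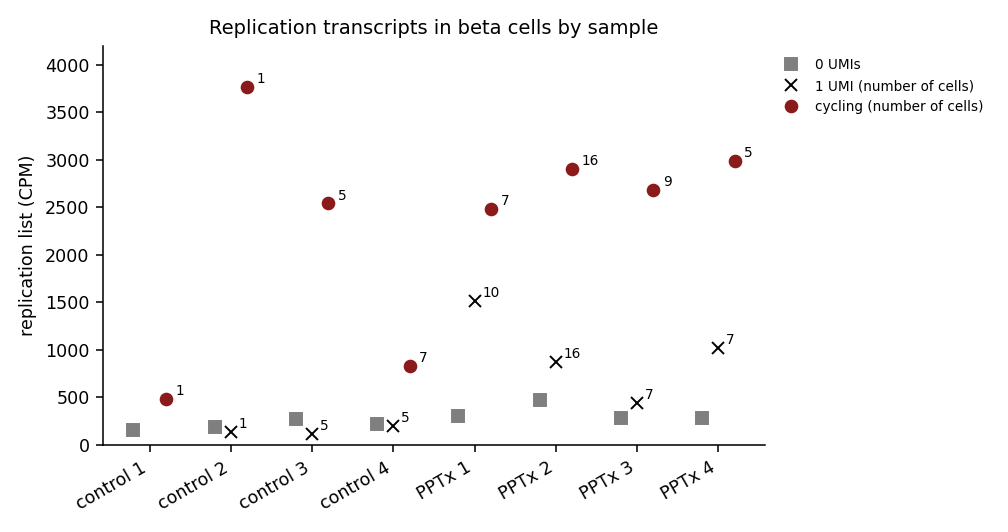
Transcripts of the replication list (CPM, y axis from 0) per sample (x axis) in β-cells with 0 UMIs, 1 UMI and at least 2 UMIs of the 14 genes, with numbers of cells beside the points. Values for 1-UMI cells were 114 to 199 CPM in control and 447 to 1520 CPM in PPTx samples, and the cycling cells of the 4 PPTx samples lay between 2482 and 2989 CPM.

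Gene by gene, cycling β-cells of PPTx and control samples hardly separated at this depth. Between 4 PPTx and 2 control samples, 1 of 1123 tested genes was called with edgeR (0.089%, with 51 genes at an unadjusted p under 0.05), and none with DESeq2. The gene was Mt1, with 535 and 1058 CPM in control samples 3 and 4 and 196, 287, 221 and 522 CPM in PPTx samples 1 to 4. The control samples were the highest, though PPTx sample 4 lay just under control sample 3 (log2 difference −1.79 ± 0.35, adjusted p = 0.0297). A single cell of control sample 4 held 44 of the 188 UMIs, and without control sample 4, or without any of PPTx samples 1, 2 or 3, 0 genes were called. In 0-UMI β-cells Mt1 made up 289 and 410 CPM in these control and 157 to 262 CPM in PPTx samples (log2 difference −0.77 ± 0.22, adjusted p = 0.544), and no gene of 7823 was called there (472 at an unadjusted p under 0.05).

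Whether the step from 0-UMI to cycling β-cells differed between PPTx and control was tested as an interaction. With edgeR, 2 of 8082 genes were called (0.0247%, with 245 at an unadjusted p under 0.05), 1 in each direction (0.0124% each), and with DESeq2 none. Both were hormone genes of other islet cells, limited to under 5% of UMIs in the choice of β-cells, so their values are a description. Sst, of δ-cells, had 16.7 and 96.2 CPM in cycling cells of control samples 3 and 4 and 28.0, 1090, 90.3 and 0 CPM in those of PPTx samples 1 to 4, against 103 and 813 CPM, and 57.0 to 156 CPM, in 0-UMI cells. Only PPTx sample 2 was high, through 1 cell with 91 of all 113 UMIs (difference of the step 4.04 ± 0.61, and 2.12 without PPTx sample 2). Ppy, of PP-cells, had 33.5 and 930 CPM in cycling cells of control and 323, 459, 130 and 190 CPM in PPTx samples, against 142 and 357 CPM, and 650 to 2309 CPM, in 0-UMI cells. Control sample 4 was high through 1 cell with 49 of 143 UMIs (difference of the step −2.74 ± 0.45, and −0.01 without that sample), and without it no gene was called. No gene of replication or mitosis was called for a different step.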

How the data were processed

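Per the methods and labels of the study, the authors used Cell Ranger with mm10, and the deposited tables hold its raw UMI counts for 24421 gene symbols by cell. Beyond filtering with Cell Ranger, the selection of cells ahead of deposit is not given in the sources used here. The cells, gene lists and tests were chosen with earlier results of these data known. No doublet caller was run, and a limit of 1% on the other hormones served as an alternative.

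Counts were summed per sample and state and tested with edgeR 4.0.16 in R 4.3.3 (TMM, quasi-likelihood, adjusted p under 0.05 by Benjamini-Hochberg), with the sample as a block between states. Samples with fewer than 3 cycling β-cells and genes with fewer than 30 UMIs were left out. TMM factors came from the 2450 genes that filterByExpr kept, a choice made after seeing that sparse sums shifted the factors. All genes shared a common trend of dispersion, so a gene carried by a single cell can be called. The script was tested on simulated data. DESeq2 1.42.0, other filters, scalings and choices of cells, and leaving out each sample were alternatives. Named genes were the 15 higher and 15 lower genes with the largest log2 change among those called, with an average of at least 5 log2 CPM and the same sign in every sample, plus members of the lists. Between groups, up to 10 genes each way were named by the same rule, with no overlap of the groups. Thinning drew 2800 UMIs from each cell in a single random draw, 2800 being the 10th percentile of β-cells rounded down. Python 3.11.15 and scipy 1.17.1 gave the shares, the exact two-sided tests and the promoter matches. Some genes are not reported here.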

Additional observations from a re-analysis of the deposited data

Results flagged for a closer look

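Of 71 groups of 4 PPTx samples checked for a value far from the others, 5 had one, where chance gives about 1 in 20. In cycling β-cells of PPTx sample 2, Nfat5 was highest at 22.9 CPM, with its only 2 UMIs, and Hist1h2bc was highest at 115 CPM. Lig1 at 142 CPM and Tuba1b at 427 CPM were highest in PPTx sample 4, which had 5 cycling β-cells, and Ncapd2 was highest in PPTx sample 3 at 120.4 CPM.

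The step from 0-UMI to cycling β-cells differed between PPTx and control for Sst by 4.04 and for Ppy by −2.74 on the log2 scale with edgeR, and for neither with DESeq2. A single cell held 80.5% of the Sst UMIs and another 34.3% of the Ppy UMIs of all cycling β-cells.

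Transcripts of the 14 genes were also found in islet cells that were not β-cells. At least 2 UMIs were found in 6 of 157 such cells of PPTx samples, or 3.82% (95% exact interval 1.42 to 8.13%), and in 2 of 152 of control samples, or 1.32% (0.160 to 4.67%). All 6 PPTx cells came from PPTx sample 2, so no difference between groups follows over samples. Of the 8 cells, 4 had over 15% of their UMIs from Gcg, 2 had over 38% from Ppy, and 2 had under 1% of each of Gcg, Sst and Ppy. One of the 4, in PPTx sample 2 with 17 UMIs of 8 genes, had 15.1% Gcg beside 33.1% insulin, above the insulin limit of the β-cells, and whether it was a doublet was not tested. The cell with the most had 27 UMIs of 11 genes, with 38.3% of its UMIs from Ppy. The replication and spindle lists made up 2854 and 3856 CPM in these 8 cells, against 337 and 329 CPM in other islet cells with 0 UMIs.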

How the results depend on the processing

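With few cells per sample, depth limits what could be tested. The 216 genes called between cycling and 0-UMI β-cells became 137 with filterByExpr (96 higher and 41 lower), 351 with a minimum of 5 UMIs, 46 after thinning, 39 when cells were also chosen after thinning, 132 in PPTx and 21 in control samples alone, and 118 to 193 without 1 of the 6 samples (118 without PPTx sample 3, 136 without PPTx sample 2). The share after PPTx differed by 3.35 points after thinning, 8.41 points with at least 1 UMI of the 14 genes (exact p = 0.0571), 2.71 to 4.43 points without 1 sample, and 3.43 points (p = 0.25, exact sign flips) with the replicate number as a block. The UMIs per cell turned to −0.00919 after thinning. For the step, DESeq2 called 0 genes and leaving out 1 sample 0 to 4, all 4 lower without PPTx sample 2. Within cycling cells, DESeq2 and the replicate block called 0 genes, Mt1 included, all samples 2, and leaving out 1 sample 0 to 1. Of the 216 genes, 128 of 132 tested in control samples alone kept their sign, and Ppy (0.49), Nudc (−1.01), Pold2 (−0.24) and Ybx1 (−0.09) turned. With cells chosen after thinning 141 of 142 did, and Hmgn1 (−0.35) turned. The cause of these changes was not tested, beyond fewer genes or samples tested. The replicate numbers were not used as pairs, since the labels name no shared animal or day and 1 of 4 correlations of deviations was under 0.1 (−0.116 to 0.391, 2 of 4 controls best with their own number), which leaves a shared batch untested. Of 1205 fits of 65 named genes, 1000 kept sign and call and 204 kept the sign alone.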
